A study of Rattus norvegicus with 63 samples.

Results

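Voltage-gated ion channels were followed across 63 rat brain arrays. A gene was counted if the array annotation gave a probe set that gene's symbol alone and the symbol began with a voltage-gated potassium (Kcna, Kcnb, Kcnc, Kcnd, Kcnh or Kcnq), hyperpolarisation-activated (Hcn), sodium (Scn) or calcium (Cacna1, Cacna2d or Cacnb) channel stem. The epithelial sodium channel symbols (Scnn) and Scnm symbols were left out. This gave 55 genes in 12 families, from 85 probe sets, of 14218 genes and 31099 probe sets in all. Each gene was read through its probe set of highest mean log2 signal.

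The rats were male Wistar rats, 4 weeks old on arrival, and their striatum (rostral caudate putamen with nucleus accumbens) and prefrontal cortex (PFC) were profiled after conditioned place preference and self-administration tests. In the naive cohort, rats had saline injections from 6 weeks of age, 2 times a day for 7 days. They were then conditioned with amphetamine at 1.25 mg/kg (3 arrays in each region), amphetamine at 5 mg/kg (3 and 3), methamphetamine at 1.25 mg/kg (3 in the striatum, 2 in the PFC), methamphetamine at 5 mg/kg (3 and 3), methylphenidate at 5 mg/kg (3 and 3) or saline (5 and 5). In the pretreated cohort, 3 stimulant groups received amphetamine, methamphetamine or methylphenidate at 5 mg/kg during that week and the same drug and dose at conditioning, and they were set against that cohort's own saline rats, which had saline throughout, with 3 arrays per group and region. Every stimulant group then self-administered its own drug, at 0.1 mg/kg per infusion for amphetamine and methamphetamine. For methylphenidate the labels give 0.25 mg per 0.1 ml, a different unit, so infused doses could not be matched. The stimulant rats profiled were those with the most robust self-administration, whereas saline rats had no drug to take, so drug exposure and this selection cannot be told apart. The design text speaks both of single rats and of RNA pools, and p-values therefore measure the spread between these samples.

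The arrays had a trimmed mean signal of 500.1 to 500.2 and a median signal of 120.4 to 155.6. One array went against its label. On the difference between the mean of striatal projection neuron markers and that of cortical pyramidal neuron markers, replicate 1 of the naive methamphetamine 1.25 mg/kg group, labelled as striatum, stood at -1.26 log2 units. The other 31 striatal arrays stood between 2.90 and 5.29 and the 31 PFC arrays between -2.23 and -0.25. It is called the array of cortical profile here, and selected striatal results are also given without it. The naive arrays also fell into 2 groups by the level of the BioB hybridisation control, 23 arrays at 9.35 to 10.63 log2 units and 16 at 5.96 to 6.68. The first contained both 1.25 mg/kg groups, methamphetamine 5 mg/kg and saline replicates 1 to 3. The second contained methylphenidate 5 mg/kg, amphetamine 5 mg/kg and saline replicates 4 and 5. All 24 pretreated arrays lay at 9.01 to 10.21.

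Voltage-gated sodium channels carry the rising phase of the action potential, potassium channels of the Kv families end it and set the spacing of spikes, and calcium channels couple it to transmitter release and signalling. Each pore-forming alpha subunit works with accessory subunits that change its gating or its number at the membrane. In the striatum, projection neurons fire late and sparsely, and potassium currents of the Kv1 and Kv4 families are known for delaying their first spike. In the cortex, Kv3 channels are known for the brief spikes of fast-firing interneurons, and cortical pyramidal neurons make up most of the neurons.

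Of the 55 genes, 28 passed the filter on low signal when both regions were fitted together (the 60% of genes with the highest mean log2 signal, 8530 genes). They were 5 Kv1, 3 Kv3, 3 Kv4, 1 Kv7, 2 Kv10 to Kv12, 3 sodium channel alpha, 3 sodium channel beta, 3 calcium channel alpha1, 2 alpha2delta and 3 calcium channel beta genes. None of the 3 Hcn genes (Hcn2, Hcn3, Hcn4) passed, nor did the Kv2 gene Kcnb2. The 27 genes below the filter had mean levels of 1.77 to 7.46 log2 units. Fitted alone, the PFC arrays had 26 tested members and the striatal arrays 28. Of these, 25 passed in both regions. Kcna5, Kcnd1 and Cacna1d passed in the striatum and not in the PFC, and Kcnc4 passed in the PFC and not in the striatum. Kcna5, Kcnd1 and Kcnc4 thus entered the joint fit through the region where they are high. Their regional values are given as a description. The counts of each cohort and of members without overlap are repeated without them. Cacna1d did not pass the joint filter.

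The first comparison asked how the channels differ between striatum and PFC in saline rats. Among naive saline rats 22 of 28 members differed at an adjusted p under 0.05 (limma, Benjamini-Hochberg over all 8530 genes), beside 40.4% of all genes tested. Of them, 11 were higher in the striatum (21.2% of all genes) and 11 were lower (19.2%). Among pretreated saline rats 17 of 28 differed, beside 27% of all genes, 11 being higher (13%) and 6 lower (14%). Over the genes that pass the filter in each region on its own, a comparison added after seeing the data, 19 of 25 members differed in naive saline rats (9 higher, 10 lower, beside 39% of 8241 genes) and 14 of 25 in pretreated saline rats (9 higher, 5 lower, beside 25.6%). Called in both cohorts in the same direction were 17 of 28 members, beside 22.5% of all 8530 genes. Those were 1921 genes, and 2300 genes were called in the pretreated cohort. The 17 members include Kcna5, Kcnd1 and Kcnc4, and this count was not repeated without them. The median difference of the 28 members was 0.08 log2 units in the naive cohort and 0.15 in the pretreated cohort, near the 0.03 and 0.00 of all genes, with members on both sides. In bulk tissue, fewer cells of a type and less RNA per cell cannot be told apart. The regions also differed in cell content. All 10 tested striatal projection neuron markers were higher in the naive striatum (median 3.68 log2 units), 9 of 10 cortical pyramidal markers were lower (median -2.76) and 11 of 11 myelin markers were higher (median 0.58). Fitted alone, 6 cortical pyramidal markers passed the filter in the striatum and 9 striatal markers in the PFC. Some of these markers thus entered the joint fit through 1 region. The part of cell content in the channel differences was not tested.

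**Figure D1:**
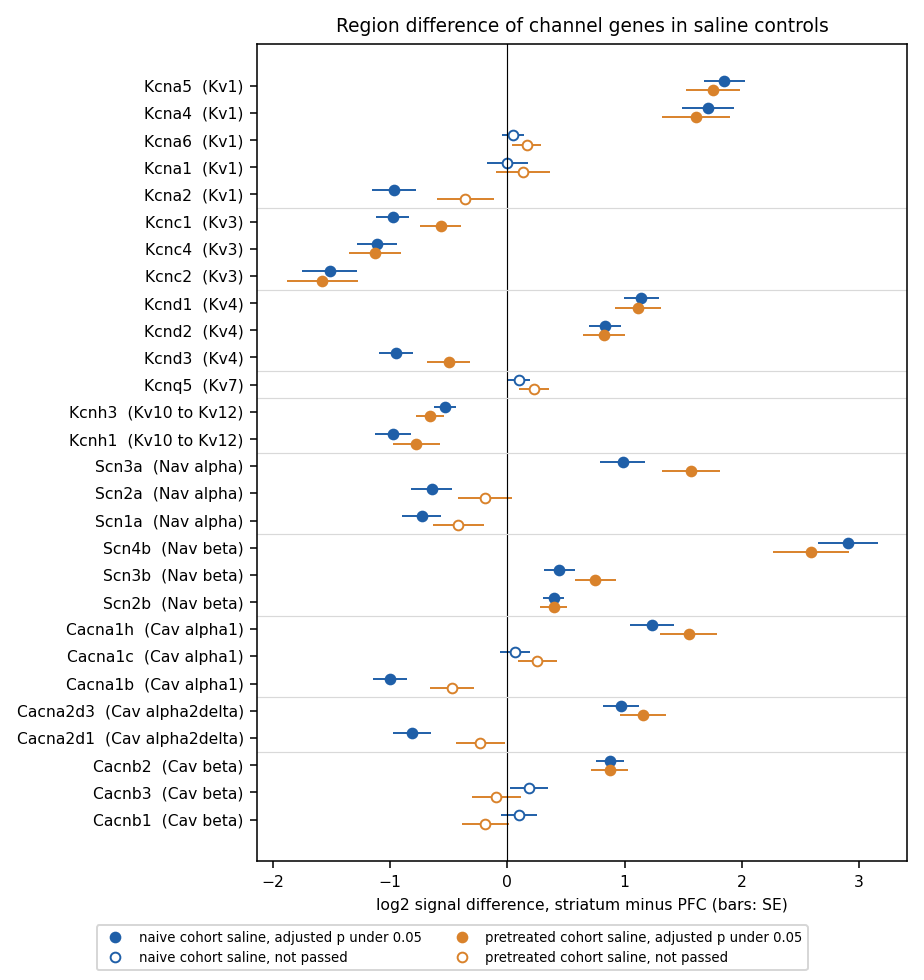
Log2 signal difference, striatum minus PFC, for the 28 tested channel genes, grouped by family, in saline rats of the naive cohort (upper point of each row, n = 5 arrays per region) and of the pretreated cohort (lower point, n = 3 per region). Bars are standard errors, filled points passed an adjusted p under 0.05 and open points did not. The 3 sodium channel beta genes lie to the right of 0 and the 3 Kv3 genes to the left in both cohorts. Kcna5, Kcnd1 and Kcnc4 passed the filter only in the region where they are high.

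The 3 tested sodium channel beta subunits were higher in the striatum. Scn4b, an accessory subunit known for promoting resurgent sodium current, had log2 signals of 14.14, 14.00, 13.90, 13.74 and 13.77 in naive striatal saline arrays, against 10.45, 10.62, 11.08, 11.42 and 11.46 in PFC saline arrays. The groups did not overlap, and the lowest striatal array lay more than 2 log2 units above the highest PFC array. The difference was 2.91 ± 0.25 (SE, 7.49-fold, adjusted p = 2.507e-13), and 2.59 ± 0.33 in the pretreated cohort. Scn3b and Scn2b, also beta subunits, were higher by 0.44 and 0.40 in the naive cohort and by 0.75 and 0.40 in the pretreated cohort, with adjusted p-values between 0.00037 and 0.0082. Both naive calls were lost within the second array group, and that of Scn2b in the pretreated cohort was lost without PFC replicate 2 or striatal replicate 3. The second probe sets of Scn3b (0.38, adjusted p = 0.164) and Scn2b (0.42, adjusted p = 0.228) did not pass in the naive cohort, nor in the pretreated one (0.69, adjusted p = 0.0629, and 0.51, adjusted p = 0.307).

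The pore-forming sodium channels split. Scn3a, an alpha subunit best known from the developing brain, was higher in the striatum by 0.98 ± 0.19 (adjusted p = 3.771e-05) in the naive cohort and by 1.57 ± 0.25 (adjusted p = 1.713e-06) in the pretreated cohort. Scn1a, the main sodium channel of many fast-firing interneurons, was lower by -0.73 ± 0.17 (adjusted p = 0.000416), and Scn2a, a sodium channel of excitatory neuron axons, by -0.65 ± 0.18 (adjusted p = 0.00256). The Scn1a call was lost within the second array group (adjusted p = 0.0778). In the pretreated cohort Scn1a differed by -0.42 (adjusted p = 0.153) and Scn2a by -0.19 (adjusted p = 0.587), and neither passed.

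Among Kv1 genes, Kcna4 was higher in the striatum, and Kcna5, which passed the filter there and not in the PFC, had higher values there. Kcna5, which encodes the delayed rectifier Kv1.5, had log2 signals of 9.02, 8.88, 8.73, 8.69 and 8.80 in naive striatal saline arrays, against 7.00, 7.25, 7.19, 6.78 and 6.64 in PFC saline arrays. The lowest striatal array lay above the highest PFC array. The difference was 1.85 ± 0.18 in the naive and 1.75 ± 0.23 in the pretreated cohort. Kcna4, the fast-inactivating member of the family, had 11.35, 11.34, 11.31, 10.77 and 10.86 in naive striatal saline arrays, against 9.02, 9.76, 9.66, 9.21 and 9.42 in PFC saline arrays, a difference of 1.71 ± 0.22 (1.61 ± 0.29 in the pretreated cohort). Kcna2, an axonal low-threshold channel, ran the other way at -0.97 ± 0.19 (adjusted p = 3.966e-05) in the naive cohort and did not pass in the pretreated cohort (-0.36, adjusted p = 0.295). Kcna1, its axonal partner, differed by 0.00 (95% interval -0.36 to 0.36) and Kcna6 by 0.05 (-0.14 to 0.24), and neither passed in either cohort.

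Kv3 channels open only at strong depolarisation and close fast. Of their genes, Kcnc1 and Kcnc2 were lower in the striatum in both cohorts. Kcnc4, which passed the filter in the PFC and not in the striatum, had lower values in the striatum. Kcnc2 had 9.40, 9.59, 9.59, 10.03 and 11.42 in naive striatal saline arrays, against 11.17, 11.38, 11.39, 11.91 and 11.77 in PFC saline arrays. One striatal array, replicate 5, lay within the PFC range and the other 4 below it. The difference was -1.52 ± 0.23 (adjusted p = 5.65e-07), and -1.58 ± 0.30 (adjusted p = 5.274e-05) in the pretreated cohort. Its 2 other tested probe sets gave -1.75 and -1.92. Kcnc4 differed by -1.11 ± 0.17 and -1.13 ± 0.22 in the naive and pretreated cohorts, and Kcnc1 by -0.98 ± 0.14 and -0.57 ± 0.18. The pretreated call of Kcnc1 was lost without PFC replicate 3 or striatal replicate 1. Of 9 tested interneuron markers in the naive cohort, Vip (-3.70), Cck (-2.51), Pvalb (-2.25) and Sst (-0.64) were lower in the striatum, and Gad1 (0.75) and Gad2 (1.19), which striatal projection neurons also express, were higher. Their part in the Kv3 values was not tested.

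Kv4 channels carry the somatodendritic A-type current. Kcnd2 was higher in the striatum, by 0.83 ± 0.14 in the naive cohort and by 0.82 ± 0.18 in the pretreated cohort. Kcnd1, which passed the filter in the striatum and not in the PFC, had values higher there by 1.14 ± 0.15 and 1.11 ± 0.19. Kcnd3 was lower, by -0.95 ± 0.14 and -0.50 ± 0.19 (adjusted p = 3.336e-07 and 0.0384). The pretreated call of Kcnd3 was lost with no filter, and without PFC or striatal replicate 2 or 3 in turn. The second tested probe set of Kcnd2 gave 0.89 and that of Kcnd3 -0.55 in the naive cohort; in the pretreated cohort that of Kcnd3 gave -0.50 and did not pass (adjusted p = 0.111). The Kv10 to Kv12 genes Kcnh1 (Eag1) and Kcnh3 (Elk2), whose channels are activated near rest and found mostly in forebrain neurons, were lower in both cohorts, Kcnh1 by -0.98 ± 0.16 and -0.78 ± 0.20 and Kcnh3 by -0.53 ± 0.09 and -0.66 ± 0.12. Kcnq5, a subunit of the muscarine-sensitive M-current, differed by 0.10 (adjusted p = 0.469) and 0.22 (adjusted p = 0.203).

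Among calcium channels, Cacna1h, a T-type channel that opens at low voltage, was higher in the striatum by 1.23 ± 0.19 (adjusted p = 4.362e-07) and 1.55 ± 0.24 (adjusted p = 1.621e-06) in the naive and pretreated cohorts. Cacna1b, the N-type channel of presynaptic terminals, was lower by -1.003 ± 0.14 (adjusted p = 1.06e-07) in the naive cohort and differed by -0.47 ± 0.19 (adjusted p = 0.0523) in the pretreated cohort. Its pretreated value passed without the array of cortical profile (-0.47, adjusted p = 0.0441). Cacna1c, the L-type channel Cav1.2, differed by 0.07 (95% interval -0.19 to 0.32). Cacna2d3 and Cacna2d1, alpha2delta subunits that bring channels to the membrane, differed by 0.97 ± 0.15 and -0.81 ± 0.16 in the naive cohort, and by 1.16 ± 0.20 and -0.23 ± 0.21 in the pretreated cohort, where Cacna2d1 did not pass (adjusted p = 0.452). The naive call of Cacna2d3 was lost within the second array group (adjusted p = 0.0581). Cacnb2, a cytoplasmic beta subunit, was higher by 0.87 ± 0.12 and 0.87 ± 0.16, and its second tested probe set gave 0.85. Cacnb1 and Cacnb3 passed in neither cohort.

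Over all treatments, 8 of the 28 members had no overlap between the 31 striatal arrays other than the array of cortical profile and the 31 PFC arrays, beside 5.87% of all genes. Over the genes that pass the filter in each region, 5 of 25 had none, beside 5.01%. The 8 were Scn4b, Kcna4, Kcna5, Kcnd1, Kcnd2, Cacna2d3, Cacnb2 and Kcnc4. Scn4b ranged over 13.30, 13.77 and 14.14 (lowest, median, highest) in the striatum, against 10.25, 11.13 and 11.51 in the PFC. Kcnc4 ranged over 6.86, 7.35 and 7.92 in the striatum, against 8.27, 8.46 and 8.76 in the PFC. The array of cortical profile had 11.10 for Scn4b and 8.57 for Kcnc4, within the PFC range in both. Within treatment groups the members' SD ran from 0.105 to 0.455 log2 units in the striatum (median 0.232, without that array) and from 0.121 to 0.348 in the PFC (median 0.215). Kcnc2 in the striatum had the largest.

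**Figure D2:**
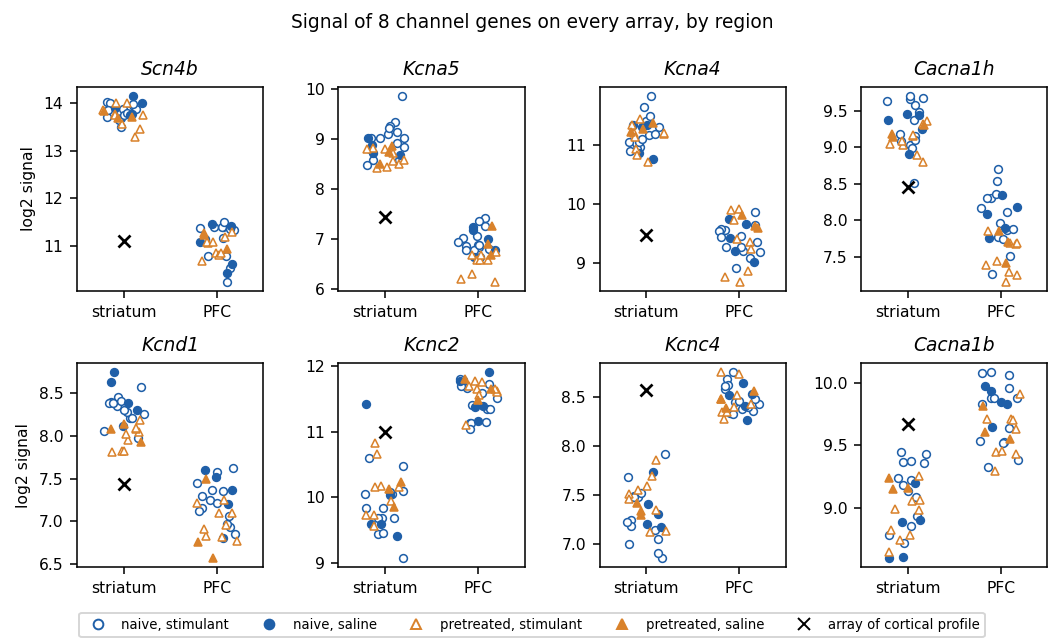
Log2 signal of 8 channel genes on each of the 63 arrays, striatum left and PFC right in each panel; filled symbols are saline arrays, open symbols stimulant arrays, circles the naive and triangles the pretreated cohort. The cross is the array of cortical profile, which lies among or near the PFC arrays in the panels; for Scn4b the other striatal arrays lie at 13.30 or above and all PFC arrays at 11.51 or below.

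The stretches of 250 bases before the annotated starts of the 2 members with the largest rise and the 2 with the largest fall are shown because these genes lie at the ends of the regional range. They were chosen after their values were seen, and Kcna5 and Kcnc4 are among the members that passed the filter in 1 region. They are RefSeq sequences of build GRCr8, on the strand of the gene, and 39 of the 55 members had such an entry. Scn4b lies at chr8:54343623-54343872 (plus strand), Kcna5 at chr4:161043810-161044059 (minus), Kcnc2 at chr7:49587364-49587613 (plus, the first of 2 annotated starts) and Kcnc4 at chr2:197788434-197788683 (minus). Capitals mark the E-box CANNTG, read on both strands.
Scn4b: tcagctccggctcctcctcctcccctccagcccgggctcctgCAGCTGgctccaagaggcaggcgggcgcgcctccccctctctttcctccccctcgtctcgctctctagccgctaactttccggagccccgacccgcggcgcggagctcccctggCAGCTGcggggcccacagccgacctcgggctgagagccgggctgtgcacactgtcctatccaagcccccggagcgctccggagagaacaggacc
Kcna5: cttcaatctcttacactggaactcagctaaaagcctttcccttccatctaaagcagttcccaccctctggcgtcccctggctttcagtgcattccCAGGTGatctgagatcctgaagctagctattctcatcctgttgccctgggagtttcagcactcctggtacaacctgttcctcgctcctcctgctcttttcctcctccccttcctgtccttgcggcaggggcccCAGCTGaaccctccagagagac
Kcnc2: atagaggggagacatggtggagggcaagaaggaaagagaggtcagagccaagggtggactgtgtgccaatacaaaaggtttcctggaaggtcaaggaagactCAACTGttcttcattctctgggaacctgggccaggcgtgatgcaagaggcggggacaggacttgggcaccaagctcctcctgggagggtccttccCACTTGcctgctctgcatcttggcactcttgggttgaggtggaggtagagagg
Kcnc4: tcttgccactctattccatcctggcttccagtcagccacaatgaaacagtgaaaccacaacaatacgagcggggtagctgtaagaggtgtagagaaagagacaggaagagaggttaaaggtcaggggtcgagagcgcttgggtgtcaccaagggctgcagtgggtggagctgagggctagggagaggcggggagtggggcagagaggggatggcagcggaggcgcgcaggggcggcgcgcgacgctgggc

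The stretches of Scn4b, Kcna5 and Kcnc2 held 2 E-boxes each and that of Kcnc4 none. An E-box was in 23 of the 39 member stretches (59.0%), against 65.2% of 27457 genes. The Sp1 box GGGCGG, on either strand, was in 21 of 39 (53.8%), against 32.4% of genes, and among the 4 printed stretches only in that of Kcnc4. The cyclic AMP response element TGACGTCA was in 0 of 39 and 1.7% of genes, the AP-1 site TGANTCA in 1 of 39 and 6.4%, and TATAAA in 1 of 39 and 13.1%. The GC content was 71.6% for Scn4b, 54.8% for Kcna5, 56.0% for Kcnc2 and 60.8% for Kcnc4, and its median was 65.6% over the members and 52.0% over all genes. These are matches of letters in a short window.

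The region difference itself did not differ between cohorts by the test used. The difference in pretreated saline minus that in naive saline passed for 0 of 28 members (limma, 0% of all genes), with 2 of 28 at an unadjusted p under 0.05, beside 4.04% of all genes. Its values ran from -0.32 to 0.61 log2 units, and the 95% interval lay within ±1 for 22 of 28 members. Without the array of cortical profile none passed (0% of all genes). Cacna1b (0.53), Cacna2d1 (0.58), Kcna2 (0.61), Kcnd3 (0.45) and Scn3a (0.59) then had an unadjusted p under 0.05. The share of all genes at that unadjusted threshold without the array is not given here.

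Genes below the filter were fitted separately, with no filter on low signal. There, 13 of the 55 members were higher and 14 lower in naive saline rats, beside 28.6% of 14218 genes called in either direction. In pretreated saline rats 12 were higher and 7 lower, beside 18.3%. Cacna1a, the P/Q-type channel of presynaptic terminals, was lower in the striatum by -1.29 ± 0.24 and -1.14 ± 0.31 in the naive and pretreated cohorts, Kcnb2 by -1.23 ± 0.46 and -1.79 ± 0.59. Scn9a, known from peripheral sensory neurons, was higher by 1.65 ± 0.55 and 1.95 ± 0.71, with naive saline means of 5.65 in the striatum and 4.00 in the PFC. Cacna1g (-1.66) and Scn7a (0.97) passed in the naive cohort alone. The Hcn genes passed in neither cohort, with Hcn2, which encodes a pacemaker-type channel, at 7.74 in naive striatal saline arrays and 7.69 in PFC saline arrays.

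The listed partners of these channels also differed by region. Of 77 listed genes, 70 had a probe set and 44 were tested; 8 were higher and 22 lower in the naive striatum, and 9 higher and 17 lower in the pretreated one. The shares of all genes were the 21.2% higher and 19.2% lower, and 13% and 14%, given above. Fitted alone, 45 partners passed the filter in the PFC and 41 in the striatum. Some of the 44 thus did not pass in the striatum, and the counts include them. Among Kv4 partners, Kcnip2, a calcium-binding subunit of the Kv4 complex, was higher by 1.43 and Dpp6 by 0.60, whereas Dpp10 (-1.75), Kcnip4 (-1.05) and Kcnip3 (-0.49) were lower. Of the Kv beta subunits, Kcnab1 was higher by 1.68 and Kcnab2 lower by -0.35. The 3 tested electrically silent subunits, which modify Kv2 channels, were lower, Kcns3 by -2.98, Kcnv1 by -1.02 and Kcng2 by -0.75. In the striatum fitted alone, 2 genes of that list passed the filter, so not all 3 passed it there. Kcnj6, a G-protein-gated inward rectifier, was lower by -3.41 and the two-pore channel Kcnk2 higher by 1.36. Nrcam (-1.10), Fgf12 (-1.04) and Ank2 (-0.43), of the sodium channel anchors and fibroblast growth factor homologues, were lower, as were the presynaptic calcium channel partners Rimbp2 (-1.34) and Rims1 (-1.01). All these values are naive cohort differences at an adjusted p under 0.05.

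The next comparisons asked whether the channels differ after stimulant self-administration. No channel gene passed in the mean of the stimulant groups minus saline in either region or cohort (limma). In the naive PFC 0 of 26 members passed, beside 0.0586% of all genes, with 1 of 26 at an unadjusted p under 0.05 (8.73% of all genes). In the pretreated PFC the counts were 0 of 26 (0.0703%) and 1 of 26 (5.45%). In the naive striatum they were 0 of 28 (0.0938%) and 1 of 28 (11.5%), and in the pretreated striatum 0 of 28 (0.363%) and 7 of 28 (16.2%). The members' median differences were -0.05, -0.09, 0.09 and -0.12 log2 units in that order, against medians of all genes within 0.02 of 0. The 95% interval of the difference lay within ±0.5 log2 units for 24 of 26 members in the naive PFC, 19 of 26 in the pretreated PFC, 22 of 28 in the naive striatum and 11 of 28 in the pretreated striatum.

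**Figure D3:**
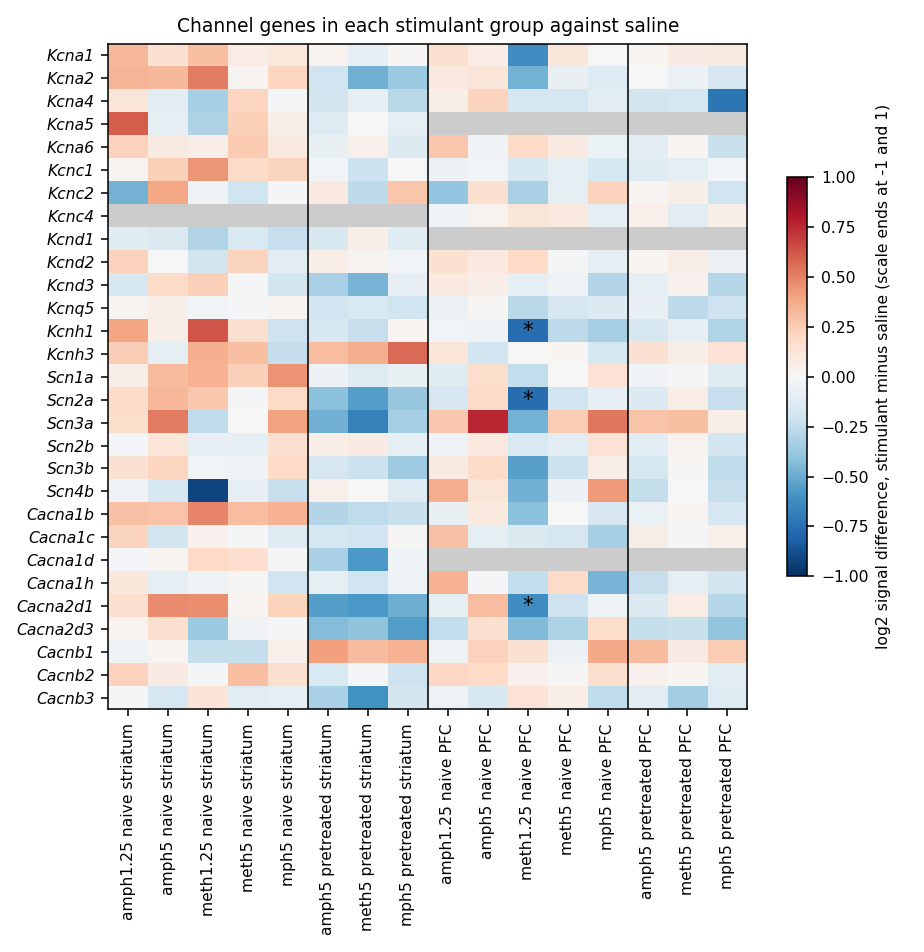
Log2 signal difference of each stimulant group minus the saline group of its region and cohort (columns) for the channel genes tested in at least 1 region (rows, by family); grey cells were not tested, and asterisks mark an adjusted p under 0.05. The 3 asterisks, Kcnh1, Scn2a and Cacna2d1, all stand in methamphetamine 1.25 mg/kg in the naive PFC; amph, meth and mph are amphetamine, methamphetamine and methylphenidate, with the dose in mg/kg.

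In the naive PFC the member of smallest p was Kcnh1, with a mean of 9.40 over the stimulant groups and 9.69 in saline arrays (-0.28 ± 0.11, adjusted p = 0.451; 4 of 14 stimulant arrays lay above the saline mean). The next lower ones were Kcnq5 (-0.13) and Scn2a (-0.20), and the higher ones of smallest p were Cacnb2 (0.12, 12 of 14 arrays above the saline mean), Scn3a (0.27) and Kcna6 (0.09). Kcna1 differed by -0.06, Kcnd2 by 0.07, Kcnc1 by -0.10, Scn1a by -0.01, Scn4b by 0.07 and Cacna1c by -0.09, none passing.

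In the pretreated PFC the smallest p was that of Cacna2d3, with -0.28 ± 0.12 (adjusted p = 0.803), where 0 of 9 stimulant arrays lay above the saline mean of 11.50. Kcna4 followed with -0.36 and Kcnq5 with -0.18. On the higher side stood Cacnb1 (0.22), Kcnh3 (0.12) and Scn3a (0.22). Kcna1 (0.07), Kcnd2 (0.01), Kcnc1 (-0.08), Scn1a (-0.06), Scn4b (-0.16) and Cacna1c (0.03) did not pass.

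In the naive striatum Cacna1b had the smallest p, 0.35 ± 0.13 (adjusted p = 0.271, 13 of 15 stimulant arrays above the saline mean of 8.84). Without the array of cortical profile it was 0.31 (adjusted p = 0.28), and the smallest p was then that of Cacnb2 (0.23, adjusted p = 0.18, against 0.15 with the array). Cacna2d1 (0.27) and Scn1a (0.28) were the next higher ones, and Kcnd1 (-0.19), Scn4b (-0.29) and Cacnb1 (-0.09) the lower ones of smallest p. Without that array Scn4b stood at -0.10. Kcna1 (0.19), Kcnd2 (0.03), Kcnc1 (0.22), Cacna1c (-0.01) and Cacna1d (0.07), another L-type channel, did not pass.

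In the pretreated striatum 2 members, Cacna2d3 and Kcnh3, passed or missed the threshold depending on single arrays. Cacna2d3 had 12.16, 12.24 and 12.28 after amphetamine, 12.44, 12.23 and 12.11 after methamphetamine and 12.12, 12.01 and 12.17 after methylphenidate, against 12.67, 12.63 and 12.67 in saline arrays. All 9 stimulant arrays lay below all 3 saline arrays. The difference was -0.46 ± 0.18 with all arrays (adjusted p = 0.216) and -0.46 ± 0.08 without the array of cortical profile (adjusted p = 0.00455). That array belongs to neither group compared and enters through the shared estimate of spread alone.

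Kcnh3 had 9.74, 9.47 and 9.37 after amphetamine, 9.49, 9.65 and 9.59 after methamphetamine and 9.72, 10.001 and 9.61 after methylphenidate, against 9.32, 9.37 and 8.95 in saline arrays. The lowest stimulant array met the highest saline array, and 9 of 9 stimulant arrays lay above the saline mean. The difference was 0.41 ± 0.11 (adjusted p = 0.0763), and it passed without the array of cortical profile (0.41 ± 0.10, adjusted p = 0.0339), without methamphetamine replicate 1 (adjusted p = 0.0494) and without methylphenidate replicate 3 (adjusted p = 0.0402). Without that array 2 of 28 members passed, beside 1.91% of all genes.

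Of the others, Cacna2d1 differed by -0.54 ± 0.17 (adjusted p = 0.126), Scn3a by -0.50 ± 0.18 (adjusted p = 0.17), Scn2a by -0.45 (adjusted p = 0.213), Cacnb3 by -0.37 (adjusted p = 0.246) and Cacnb1 by 0.36 (adjusted p = 0.307). For Cacna2d1 and Scn3a, 0 of 9 stimulant arrays lay above the saline mean. Kcna1 (-0.01), Kcnd2 (0.02), Kcnc1 (-0.08), Scn1a (-0.09), Scn4b (-0.03), Cacna1c (-0.12) and Cacna1d (-0.31) did not pass. Cell type markers moved beside these values. The mean of the cortical pyramidal markers was 7.58 to 8.97 log2 units on the 9 stimulant arrays, against 7.18 to 7.74 on the saline arrays, with 6 of 6 tested markers above 0 (median difference 0.78). The striatal projection neuron markers averaged 11.87 to 12.20 on stimulant arrays, against 12.26 to 12.44 on saline arrays, and 9 of 9 astrocyte markers lay above 0 (median 0.19). None of these markers passed, and their part in the channel values was not tested.

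Each stimulant and dose was then set against its own saline group, 16 comparisons in all. Members passed in 1 of them, methamphetamine at 1.25 mg/kg in the naive PFC, where 3 of 26 members were lower, beside 11.1% of all genes, and 11 of 26 had an unadjusted p under 0.05, beside 29.1%. Kcnh1 had 8.72 and 9.15 on the 2 methamphetamine arrays, against 9.80, 9.68, 9.81, 9.55 and 9.59 in saline arrays (-0.76 ± 0.18, adjusted p = 0.0141). Both methamphetamine arrays lay below all saline arrays, as did the 3 methylphenidate arrays for this gene. Scn2a had 10.87 and 11.32, against 11.58, 11.66, 11.85, 12.13 and 12.05 in saline arrays (-0.76 ± 0.23, adjusted p = 0.0325). Cacna2d1 had 10.20 and 10.72, against 10.94, 10.95, 11.10, 11.19 and 11.22 in saline arrays (-0.62 ± 0.19, adjusted p = 0.0369). The groups did not overlap in any of the 3 genes, and the lower value in each came from methamphetamine replicate 1.

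Without that replicate none of the 3 passed (adjusted p = 0.458, 0.552 and 0.617 for Kcnh1, Scn2a and Cacna2d1). Without saline replicate 4 or 5 Kcnh1 alone passed. Cacna2d1 was also lost without saline replicate 3 and with no filter, and both Scn2a and Cacna2d1 with the replicate number as a block (adjusted p = 0.162 and 0.151). With the array group as a covariate Kcnh1 alone passed (-0.84, adjusted p = 0.0225). Of the channel partners, 10 of 45 tested were lower in the same comparison and 0 higher, among them Ank3 (-0.95), the anchor of sodium channels at the axon initial segment, Nfasc (-1.003), Kcnk2 (-0.75) and Kcnj6 (-0.78), Kcnv1 (-0.66) and Kcns3 (-0.61), Lgi1 (-0.61), Cntnap2 (-0.69) and Dlg4 (-0.38) of the Kv1 clustering list, and Pex5 (-0.47). The cortical pyramidal markers averaged 9.79 and 9.76 on the methamphetamine arrays, against 9.96 to 10.22 on the saline arrays. Myelin markers averaged 11.32 and 11.51, against 11.50 to 11.95. Single markers passed in this comparison, among them Slc17a7 of excitatory neurons (-0.80), Gad2 of inhibitory neurons (-1.30), and Opalin (-0.84), Mag (-0.83) and Gpr37 (-0.68) of myelin. Mbp of myelin (0.56) and S100b of astrocytes (0.56) were higher. Of 9 tested astrocyte markers, 1 passed as higher and 1 as lower. Of 9 striatal projection neuron markers 2 passed as lower, and of 6 blood and vessel markers 1 did, with 0 higher in both lists. The log2 ratio of the 3′ to the 5′ Gapdh control probe sets was 0.80 and 0.42, against 0.251 to 1.199. Their part in the channel values was not tested.

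**Figure D4:**
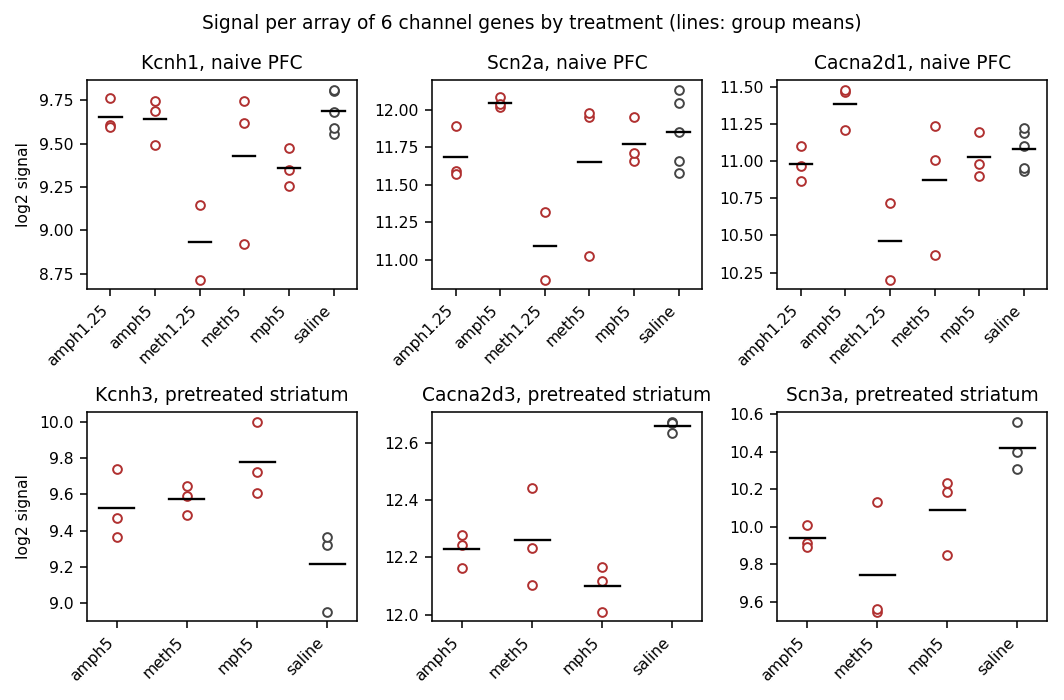
Log2 signal per array, by treatment, of Kcnh1, Scn2a and Cacna2d1 in the naive PFC (top) and of Kcnh3, Cacna2d3 and Scn3a in the pretreated striatum (bottom); each point is an array and each line a group mean. In the top row both methamphetamine 1.25 mg/kg arrays lie below all 5 saline arrays, and so does 1 of the 3 methamphetamine 5 mg/kg arrays (for Kcnh1, the 3 methylphenidate arrays too); amph, meth and mph are amphetamine, methamphetamine and methylphenidate, with the dose in mg/kg; for Cacna2d3 all 9 stimulant arrays lie below the 3 saline arrays.

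The remaining 15 comparisons had 0 members passing (limma). The shares of all genes called were 0.492% for amphetamine at 1.25 mg/kg, 0.0117% for amphetamine, 0.0352% for methamphetamine and 0% for methylphenidate at 5 mg/kg in the naive PFC, and 0.0234%, 0.0117% and 0.0938% for the same 3 drugs in the pretreated PFC. In the naive striatum they were 0.34% and 0.188% for amphetamine and methamphetamine at 1.25 mg/kg, and 0%, 0.328% and 0.129% for amphetamine, methamphetamine and methylphenidate at 5 mg/kg. In the pretreated striatum they were 0%, 0.703% and 0.0821% for the same 3 drugs. For methamphetamine at 5 mg/kg in the naive PFC, 1 of 26 members had an unadjusted p under 0.05, beside 7.96% of all genes. Over all 16, 53 of 432 member tests (12.3%) had an unadjusted p under 0.05, against a mean of 11.9% of all genes. Differences ran from -0.92 to 0.75 log2 units, the lowest being that of Scn4b in the naive striatal group that holds the array of cortical profile. Without the array of cortical profile, Cacna2d3 passed after pretreatment and methamphetamine in the striatum (-0.40, adjusted p = 0.0392), together with Scn3a (-0.68, adjusted p = 0.0468), beside 1.29% of all genes. Cacna2d3 also passed after methylphenidate (-0.56, adjusted p = 0.0167), together with Kcnh3 (0.57, adjusted p = 0.0336), beside 0.528%. After amphetamine no member passed (0.0117%). These comparisons share their saline arrays.

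Higher and lower dose were compared for amphetamine and methamphetamine in the naive cohort. Kcnc2 passed for amphetamine in the PFC, 1 of 26 members beside 7.07% of all genes. It had 11.15, 11.13 and 11.13 at 1.25 mg/kg and 11.79, 11.67 and 11.60 at 5 mg/kg, a difference of 0.55 ± 0.14 (5 minus 1.25 mg/kg, adjusted p = 0.0212), with no overlap. Dose and array group coincide here and cannot be told apart. In PFC saline arrays, which had no drug, Kcnc2 was at 11.17, 11.38 and 11.39 on the arrays of the first array group and 11.91 and 11.77 on those of the second. With the array group as a covariate the difference was 0.02 (adjusted p = 0.989), and it did not pass without amphetamine 1.25 mg/kg replicate 2 or 3, or without amphetamine 5 mg/kg replicate 1 or 2 (adjusted p = 0.0636, 0.0662, 0.0816 and 0.0685). The striatal projection neuron markers averaged 8.98 to 9.63 on the 1.25 mg/kg arrays, against 8.15 to 9.17 at 5 mg/kg and 8.15 to 9.04 in saline. Of 9 tested, 6 were lower at 5 mg/kg and 0 higher (median -0.73). Other marker lists had calls too. Of 10 cortical pyramidal markers 2 were higher and 0 lower, and of 10 interneuron markers 1 was lower and 0 higher. Of 9 astrocyte and 6 microglia markers, 2 each were lower and 0 higher. Of 11 myelin markers 1 was higher and 1 lower, and of 6 blood and vessel markers 1 was higher and 0 lower. Their part in the Kcnc2 value was not tested.

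In the other dose comparisons 0 members passed (limma): 0 of 28 for amphetamine in the striatum (1.68% of all genes; 4 of 28 at an unadjusted p under 0.05), and 0 of 26 and 0 of 28 for methamphetamine in the PFC and striatum (0% of all genes in both; 5 of 26 and 4 of 28). For amphetamine in the striatum, Kcna5 had 9.34, 9.09 and 9.86 at 1.25 mg/kg and 8.57, 8.58 and 9.02 at 5 mg/kg. The difference of -0.71 passed only without the array of cortical profile (adjusted p = 0.0391, beside 2.54% of all genes), and dose again coincides with array group. Methamphetamine had both doses in 1 array group. There, 1 array of the PFC group at 5 mg/kg, replicate 2, had 8.92 for Kcnh1, 11.02 for Scn2a and 10.37 for Cacna2d1, below every saline array, whereas its 2 companions had 9.62 and 9.75, 11.95 and 11.98, and 11.01 and 11.24. Without it, 9 member calls in place of 1 were made over the 4 dose comparisons. The share of all genes called without it is not given here, so these calls have no background beside them.

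The 3 stimulants were compared with each other at the matched conditioning dose of 5 mg/kg, in 12 comparisons. Methamphetamine is amphetamine with a methyl group on its nitrogen, and methylphenidate is a piperidine compound outside the amphetamine scaffold. The 95% interval lay within ±1 log2 unit in 316 of 324 member tests (97.5%), and differences ran from -0.59 to 0.66. A single member passed, Kcnh3 in the naive striatum (beside 1.57% of all genes), with 9.86, 9.88 and 9.80 after methamphetamine, against 9.23, 9.30 and 9.39 after methylphenidate. The groups did not overlap, and the difference was 0.54 ± 0.14 (adjusted p = 0.0414). The 2 groups lie in different array groups, which cannot be told apart from drug. With the array group as a covariate the difference was 0.58 (adjusted p = 0.528). It did not pass without any 1 of these 6 arrays, nor without naive striatal amphetamine 5 mg/kg replicate 1 or 2 or pretreated striatal amphetamine replicate 2. It passed without the array of cortical profile (0.54, adjusted p = 0.0278, beside 2.3% of all genes). In the pretreated striatum the same pair ran the other way for Kcnh3, with 9.49, 9.65 and 9.59 after methamphetamine and 9.72, 10.001 and 9.61 after methylphenidate, and did not pass.

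For methamphetamine minus amphetamine, which differ by that methyl group, 0 members passed in any region or cohort (limma), beside 1.45% of all genes in the naive PFC, 1.58% in the naive striatum and 0% in both regions of the pretreated cohort. The counts at an unadjusted p under 0.05 were 3 of 26 in the naive PFC (beside 19.9% of all genes), 3 of 28 in the naive striatum (17.9%) and 0 in the pretreated PFC and striatum (4.28% and 3.08%). In the pretreated cohort the arrays did not split by BioB level (9.01 to 10.21). There, the 95% intervals lay within ±0.5 log2 units for 17 of 26 members in the PFC and for 10 of 28 in the striatum, so for the rest the intervals reach beyond that size.

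Last, the stimulant effect was compared between cohorts and regions. Pretreated minus naive effects at 5 mg/kg passed for 0 of 26 members in the PFC (limma, 0.0117% of all genes; 1 of 26 at an unadjusted p under 0.05, beside 4.47%) and for 0 of 28 in the striatum (0.0586%; 8 of 28, beside 16.8%). Without the array of cortical profile Cacna2d3 (-0.50 ± 0.10, adjusted p = 0.0357) and Scn3a (-0.80 ± 0.18, adjusted p = 0.0442) passed in the striatum, beside 0.598% of all genes. For Scn3a the saline arrays of the 2 cohorts differed as well, at 10.40, 10.31 and 10.56 in pretreated saline and 9.41, 9.43, 9.40, 9.71 and 9.86 in naive saline. For Cacna2d3 they were at 12.67, 12.63 and 12.67 in pretreated saline and 12.41, 12.19, 12.21, 12.09 and 12.19 in naive saline, so that the pretreated saline arrays lay above all naive ones in both genes. The sample titles name no array run, and any difference in processing between the cohorts cannot be told apart from pretreatment. The striatal minus the PFC stimulant effect passed for 0 of 28 members in both cohorts (0% of all genes; 4 and 2 of 28 at an unadjusted p under 0.05, beside 6.34% and 5.13%).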

How the data were processed

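The deposited table held 1 intensity per probe set and array, made by the authors with MAS5 per the submitters' processing notes, whose version is not given in the sources used here. Each array's 2% trimmed mean was near 500.2. Values under 1 were set to 1 (18232 values) and log2 was taken. Probe sets were named from the platform annotation: 20832 had 1 symbol, 436 several and 9831 none. Each gene was represented by its probe set of highest mean, and the 60% of genes with the highest mean were tested. limma 3.58.1 (R 4.3.3) fitted 1 mean per group, with an intensity trend, over all arrays of a region (10 groups) or of both (20 groups). Calls are at a Benjamini-Hochberg adjusted p under 0.05 over 8530 genes. The fit was tested on simulated data. The number of arrays limits the precision. All member results come from 1 family of 43 comparisons, and the p-values are adjusted within each. Named genes were the members called, the 3 of smallest p in each direction against saline, the region's leading gene of each family, and 8 fixed genes. Genes named below the filter and partners were chosen after their values were seen. The members and lists were chosen with earlier results of these data known. Same-numbered arrays of the 2 regions deviated together in naive saline rats (5 of 5 pairs, correlations 0.229 to 0.532) but not in every pair elsewhere, so the replicate block is an alternative. Alternatives covered scaling, the filter, the probe set choice, batch, replicate block and each array left out.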

Additional observations from a re-analysis of the deposited data

Results flagged for a closer look

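Of 54 sets of naive saline arrays, 1 for each tested member in each region, 2 held 1 array far from the others, close to the 1 in 20 that chance gives. Kcnh3 in naive PFC saline arrays had 10.32 on replicate 1, against 9.98 to 10.07 on the other 4. Cacna2d1 in naive striatal saline arrays had 9.93 on replicate 3, against 10.29 to 10.42 on the other 4.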

How the results depend on the processing

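The 22 regional calls of the naive cohort stayed 22 without any single array, and were 22 and 18 within the first and second array group. The 17 of the pretreated cohort ranged from 15 to 18. The 2 cohorts gave 19 and 14 over genes past the filter in each region, and 22 and 19 with replicate block. No called value changed sign under any alternative, whereas values of members that did not pass did so in 73 cases, such as Kcnc1 in the naive striatum (0.22, lowest -0.06). Of the other counts, the single stimulant comparisons (3 calls) gave 6 with the top 40% of genes, 5 with all probe sets, 8 with replicate block and 1 with array batch as covariate, and 0 to 7 with an array left out (7 without PFC saline replicate 1, PFC methamphetamine 5 mg/kg replicate 2 or the array of cortical profile, 5 without PFC methamphetamine 1.25 mg/kg replicate 2, naive striatal methamphetamine 1.25 mg/kg replicate 3 or pretreated striatal methamphetamine replicate 1, 1 without PFC saline replicate 4 or 5, 0 without PFC methamphetamine 1.25 mg/kg replicate 1). Stimulant pairs (1 call) gave 0 with no filter, with array batch as covariate and with only the cohort's arrays, 3 with replicate block, and 0 to 2 with an array left out (2 without PFC methamphetamine 5 mg/kg replicate 2). Dose comparisons (1 call) gave 2 with quantile normalization and with all probe sets, 3 with replicate block, 0 with array batch as covariate, and 0 to 9 with an array left out (9 without PFC methamphetamine 5 mg/kg replicate 2, 2 without the array of cortical profile). The cohort difference (0) gave 1 with replicate block and 0 to 2 with an array left out (2 without the array of cortical profile, 1 without pretreated striatal methylphenidate replicate 3). The pretreated striatum (0) gave 1 with replicate block and with only the cohort's arrays, and 0 to 2 with an array left out. The naive striatum (0) gave 1 with replicate block, Scn1a at 0.59 (adjusted p = 0.0319). The cause of these changes was not tested, and the shares of all genes under these alternatives are not given here. The pairing check behind the replicate block found same-numbered arrays of the 2 regions correlated above 0.1 in 23 of 31 pairs (median 0.203, against -0.101 for other numbers), with 5 of 5 naive saline pairs at 0.229 to 0.532 and pretreated saline pairs at 0.096 to 0.158. The naive saline arrays may thus be paired across regions, where the block left all 22 calls. Within a region the medians were -0.024 to 0.19. Signal near background limits the 27 low members.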
